A study of Mus musculus with 9 samples.

Results

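Ccr7, S1pr1, S1pr5 and Klf2 are genes that set whether a CD8 T cell enters a lymph node, stays in it or leaves. Open chromatin at them was mapped by ATAC-seq, an assay that tags accessible DNA with the transposase Tn5. Peaks from 9 libraries were merged wherever they shared at least 1 base, which gave 62963 union regions on chromosomes 1 to 19 and X. A union region was assigned to a gene when it overlapped the body of that gene on mm10, or when the nearest end of any protein-coding gene, within 100 kb, was an end of that gene. By this rule 49 of the 62963 regions belonged to the 4 genes: 16 to Ccr7, 23 to S1pr1, 3 to S1pr5 and 7 to Klf2.

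All 9 libraries came from P14 CD8 T cells, which carry a transgenic receptor for the GP33-41 epitope of lymphocytic choriomeningitis virus (LCMV). Naive donor cells, CD44- and GFP+, were taken from TCF-1-GFP reporter P14 mice and put into C57BL/6 hosts 8 days after these had received B16.F10 melanoma cells that express the LCMV glycoprotein. CD45.1+CD44+CD8 T cells, wild type per the labels, were sorted from tumor-draining lymph nodes on day 4, day 8 or day 21 after transfer, with 3 libraries a day. Every group thus shares the reporter allele, the receptor transgene and the tumor, and no library came from naive cells, from a tumor-free host or from the tumor itself. The labels do not state host age, whether nodes were pooled, or whether libraries of 1 day are separate animals.

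CCR7 is the chemokine receptor through which naive and central memory T cells enter lymph nodes and reach the T cell zone. S1PR1 senses sphingosine 1-phosphate, which is high in lymph and blood, and draws T cells out of the node; CD69 removes it from the cell surface. S1PR5 is a related receptor, known for the exit of NK cells from marrow and nodes and for effector T cells that express T-bet. KLF2 is a zinc finger transcription factor of quiescent T cells that binds and activates the S1pr1 gene, and FOXO1 acts upstream of KLF2 and CCR7.

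The promoters of Klf2 and S1pr5 are shown because these genes had opposite patterns at their starts: the Klf2 promoter lay inside a region called in all 9 lists, and the S1pr5 promoter lay in no called region. Each line gives the 250 bases before the gene's start on the strand of the gene, 5′ to 3′, from the RefSeq table for GRCm38.p6. Capitals mark GGGTG or its reverse complement CACCC, the core letters bound by KLF factors. The Klf2 sequence is chr8:72318812-72319061 on the plus strand and the S1pr5 sequence is chr9:21248444-21248693 on the minus strand.
Klf2 promoter: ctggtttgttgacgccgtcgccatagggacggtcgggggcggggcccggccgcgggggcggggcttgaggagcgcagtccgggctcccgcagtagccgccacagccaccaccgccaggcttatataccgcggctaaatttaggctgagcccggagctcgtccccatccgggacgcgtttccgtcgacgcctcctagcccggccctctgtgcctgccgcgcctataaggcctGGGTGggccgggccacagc
S1pr5 promoter: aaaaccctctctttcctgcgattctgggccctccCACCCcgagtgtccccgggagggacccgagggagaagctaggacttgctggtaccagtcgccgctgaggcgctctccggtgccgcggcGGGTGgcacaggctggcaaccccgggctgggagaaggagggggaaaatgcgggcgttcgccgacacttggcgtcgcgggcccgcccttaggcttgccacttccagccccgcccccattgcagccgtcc

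The Klf2 promoter had a GC content of 71.2% with 29 CpG dinucleotides, and the S1pr5 promoter had 69.2% with 22, against a median GC content of 55.6% over 21045 promoter windows of 17274 genes. The KLF core occurred 1 time in the Klf2 promoter, 19 bases before the start, and 2 times in the S1pr5 promoter, 128 and 216 bases before it. That core is short, and 54.4% of all promoter windows held it on either strand. No match was found in either promoter for the letters of FOXO (GTAAACA, in 2.64% of all windows), TCF (CTTTGAA, 4.07%), T-box (GGTGTGA, 3.11%), ZEB (CAGGTG, 17.0%), RUNX (TGTGGT, 12.2%), AP-1 (TGANTCA, 6.17%) or ETS factors (CCGGAA, 15.1%), searched on both strands. The nearest union region lay 1432 bases from the S1pr5 promoter. Of all promoter windows, 46.3% overlapped no union region and 41.0% overlapped one called in all 9 lists.

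The lists differ in length, which bears on every comparison with day 4. Peaks per list numbered 20534 ± 1496 on day 4, 48811 ± 1776 on day 8 and 48420 ± 2832 on day 21 (mean ± SD over 3 lists). The smallest local background in a list, used as its depth because read totals are unknown, was 2.89 ± 0.424, 2.38 ± 0.246 and 2.60 ± 0.414 tags, and its mean was not lower on day 4 than on the later days. The median fold enrichment at the 15109 regions called in all 9 lists was 5.70 to 5.75 on day 4, 8.93 to 9.01 on day 8 and 8.65 to 8.86 on day 21. Within a day, summit pileups differed by less than the sampling noise (chi-square per region 0.417 to 0.444 over 9 pairs, against 0.965 to 1.19 for the 27 pairs of different days). SDs and p-values here therefore measure the spread between lists, which may be technical. Regions of 10 CD8 T cell marker genes, all of which had a region, were called at 31 to 35 of 111 on day 4, 79 to 85 on day 8 and 73 to 88 on day 21.

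More regions of each of the 4 genes were called on days 8 and 21 than on day 4, with no overlap between day 4 and a later day for any of the 4. The same held for 80.6% of the 7830 genes with at least 3 regions for day 8 and for 78.6% for day 21, so it is no feature of the 4 genes in particular. Between day 8 and day 21 the numbers of all 4 genes overlapped, where 3.59% of genes were higher and 4.21% lower without overlap. For the 49 regions together, the day 4 lists called 21, 17 and 17, the day 8 lists 39, 42 and 42, and the day 21 lists 40, 40 and 42. That is 37.4%, 83.7% and 83.0% of the regions on days 4, 8 and 21, beside 30.2%, 74.5% and 73.9% of all union regions. The lists were thus longer throughout the genome. In bulk cells, an opening in more of the cells and a wider opening in each cell cannot be told apart. Nor can either be told from a lower enrichment of all day 4 libraries, whose median fold is given above.

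**Figure D1:**
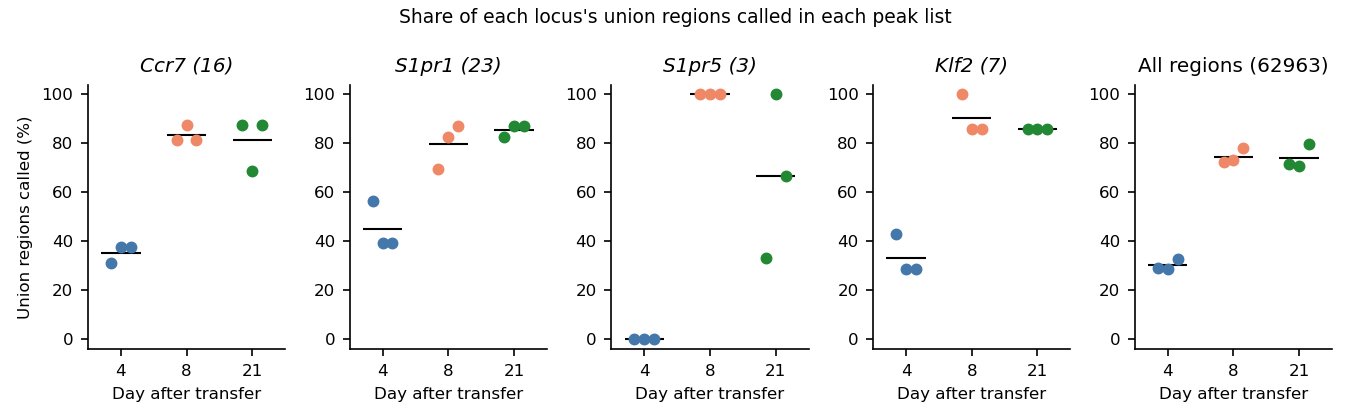
Percent of each gene's union regions called in each of the 9 lists (points, by day after transfer; the line is the mean of 3 lists), with the same over all union regions. Every gene sits lowest on day 4, S1pr5 at 0 in all 3 day 4 lists, and S1pr1 has the highest day 4 mean at 44.9%.

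To take list length out, each gene's number of called regions was divided by the total of its list, put on a log2 scale with a pseudocount of 0.5, and fitted with limma over the 7830 genes with at least 3 union regions. A log2 difference from this fit is relative to list length: a gene with equal numbers in a longer list comes out lower. From day 4 to day 8 the fit called 16.2% of the 7830 genes higher and 26.3% lower (Benjamini-Hochberg adjusted p under 0.05), and 1891 of the 2058 lower genes had more regions called on day 8. Without the division, 6563 genes passed as higher and 0 as lower. When only the 19499 strongest peaks of every list were used, 3 genes passed as higher and 11 as lower. Over all tested genes the median log2 difference was -0.14 with the division and 1.17 without it. Of the 4 genes, S1pr1 was called lower. S1pr5 passed as higher on both later days, but all 3 of its regions entered the union through later lists only, so its day 4 number of 0 follows from how regions were defined and its values are given as a description. For day 21 against day 4 the fit called 16.1% higher and 25.6% lower, and none of Ccr7, S1pr1 and Klf2 passed. From day 8 to day 21 it called 0% higher and 0.0128% lower, which is 1 gene, and 839 genes had an unadjusted p under 0.05; none of the 4 genes was among the 839. Both comparisons with day 4 use the same 3 lists, so they are not independent of each other.

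**Figure D2:**
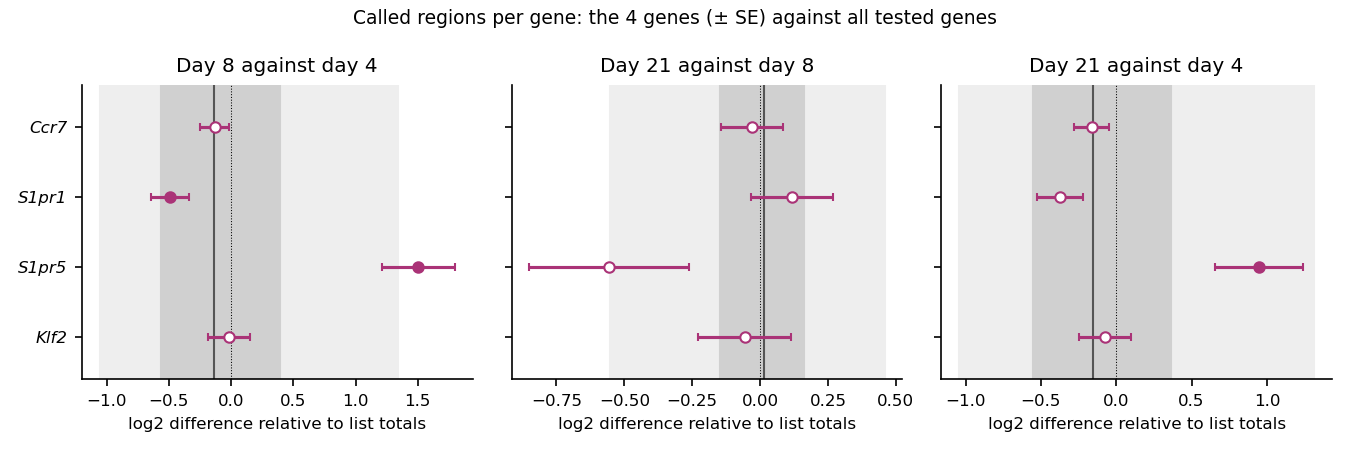
Log2 difference in called regions relative to list length for the 4 genes in the 3 comparisons (points, with standard errors; filled where the limma adjusted p is under 0.05), over the middle 50% (dark band), the middle 90% (light band) and the median (line) of the 7830 tested genes. S1pr5, whose regions are all absent from the day 4 lists, lies above the 90% band in day 8 against day 4, at 1.50, and S1pr1 lies inside it at -0.49.

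Klf2 kept an open start on all 3 days and had more flanking regions on the later days. Klf2 (gene ID 16598, chr8:72319062-72321654) has Ap1m1 and Eps15l1 as neighbours, 61.7 and 19.3 kb away. Its 7 regions comprised 1 that reaches into the gene body, 4 below the gene and 2 beyond it. The day 4 lists called 3, 2 and 2 of them, the day 8 lists 7, 6 and 6, and the day 21 lists 6 each. Relative to list length the difference was -0.02 ± 0.17 (SE) for day 8 against day 4 and -0.07 for day 21 against day 4 (limma adjusted p = 0.943 and 0.762). With all 7 regions called in every later list these would have been 0.12 and 0.13, less than the SE, so a higher value could not have been detected. The sign of the day 8 difference was not stable, being 0.72 (adjusted p = 0.469) when only the 19499 strongest peaks of every list were used.

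The region at the Klf2 start, chr8:72318586-72319578, covers the promoter printed above and was called in all 9 lists. Its fold enrichment, the authors' value at the peak summit over the local background of that list, was 6.60, 8.46 and 6.63 on day 4, 8.13, 7.78 and 8.58 on day 8, and 7.08, 6.76 and 6.69 on day 21. Such values are not comparable between lists whose enrichment differs throughout, so the region was ranked within each list among the 15109 regions called in all 9 lists, by −log10 p, with 100 as the strongest. A region near the bottom of this ranking can hardly fall, and one near the top can hardly rise. Shares of regions that rose or fell more are over all 15109, whatever their starting rank. Its percentile was 85.8, 96.2 and 87.3 on day 4, 78.7, 76.6 and 85.4 on day 8, and 73.3, 66.7 and 71.8 on day 21. The start region thus stood lower on each later day, with no overlap between any 2 days, and its mean percentile dropped by 9.52 points to day 8 and then dropped by 9.65 points to day 21. From day 4 to day 21 its mean percentile fell by 19.2 points, and 8.22% of the 15109 regions fell more. Ranked by fold enrichment in place of −log10 p, a choice made after seeing the data, its percentile went from 75.2 to 38.2 and 21.8. Regions at gene ends fell in rank more often than they rose: of the 8003 regions within 1 kb of a gene end, 19.5% were lower without overlap on day 21 than on day 4 and 8.78% were higher. Ranked by fold enrichment, 31.6% of these 8003 were lower on day 21 than on day 4 and 10.9% higher. For day 8 against day 4 that ranking gave 28.3% lower and 13.3% higher.

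Of the 6 flanking regions of Klf2, 1 had a rank in all lists, and it stood higher on the later days. This region, 22.9 kb below the gene, chr8:72295543-72296191, had percentiles of 14.7, 3.1 and 1.5 on day 4, 30.3, 32.3 and 15.6 on day 8, and 28.5, 27.9 and 42.5 on day 21. Both later days lay above day 4 without overlap, by 19.6 and 26.5 points, and 8.23% and 4.68% of the always-called regions rose more. Its fold enrichment was 4.52, 4.05 and 3.57 on day 4 and 7.23 to 8.78 on the later days. A further 3 of the 7 regions (42.9%, beside 19.2% of all union regions) were called in no day 4 list and in all 6 later lists: chr8:72303358-72304065, 15.0 kb below the gene, chr8:72330744-72331506, 9.09 kb beyond it, and chr8:72322038-72322755, 0.384 kb beyond it. The first of them had fold enrichments of 5.31 to 7.67, the second 6.08 to 8.14 and the third 2.28 to 2.61. The region 27.6 kb below the gene, chr8:72291063-72291511, was called in day 4 list 1 and in all 6 later lists. The remaining region, chr8:72312756-72312965, was called in day 8 list 1 alone.

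S1pr1 had the largest number of regions and the largest share of them already called on day 4. The gene (ID 13609, chr3:115710433-115715055) stands far from others, with Dph5 173.1 kb and Olfm3 584.7 kb away, and its 23 regions comprised 4 in the body, 12 below and 7 beyond it. The day 4 lists called 13, 9 and 9 of them, the day 8 lists 16, 19 and 20, and the day 21 lists 19, 20 and 20. That is 44.9%, 79.7% and 85.5%, with no overlap between day 4 and a later day. The regions reached out to 84.0 kb, at chr3:115799058-115799906, called in 2, 3 and 3 lists of the 3 days. The nearest region outside the 100 kb limit, chr3:115603912-115604187 at 106.2 kb, was called in 1 day 8 list only.

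Relative to list length, S1pr1 was lower on day 8 than on day 4 by a log2 difference of -0.49 ± 0.15 (SE, limma adjusted p = 0.0252), although more of its regions were called in each day 8 list than in any day 4 list. With all 23 regions called in every day 8 list the difference would still have been -0.16, so a gene this far open on day 4 could not come out higher. The call did not hold in the 19499 strongest peaks (-0.31, adjusted p = 0.610), within 50 kb of the gene (-0.43, 0.0614), without day 8 replicate 1 (-0.42, 0.0902) or without day 8 replicate 3 (-0.52, 0.0557), and it turned to 0.84 (0.0244) when a peak had to cover at least 50% of a region. In S1pr1, peaks covered 45.2% of a called region's length on day 4 and 81.0% on day 8, against 54.8% and 79.3% over all union regions. Day 21 against day 4 gave -0.37 ± 0.15 (adjusted p = 0.0693), and day 21 against day 8 gave 0.12 (0.899). The former was -0.52 (adjusted p = 0.0172) without day 4 replicate 3 and turned to 0.94 (0.0158) with at least 50% of a region covered. Without the division by list totals, S1pr1 was higher by 0.81 on day 8 and by 0.92 on day 21 than on day 4.

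Of the 6 S1pr1 regions called in all 9 lists, 1 differed in rank by −log10 p without overlap between day 4 and day 8, and 0 between day 4 and day 21. It lies 48.9 kb below the gene, at chr3:115661071-115661510, and had fold enrichments of 4.36, 5.80 and 4.80 on day 4, 13.0, 12.3 and 12.6 on day 8, and 10.1, 11.6 and 11.3 on day 21. Its percentile by −log10 p was 6.4, 32.9 and 14.3 on day 4, 51.6, 48.2 and 52.4 on day 8, and 20.8, 46.1 and 39.5 on day 21. Day 8 was above both other days without overlap, and 1.60% of the 15109 always-called regions rose more from day 4 to day 8. By fold enrichment its mean percentile went from 32.0 to 91.2 and 80.2, so the day 8 level was the highest on either ranking. In the fold ranking both later days lay above day 4 without overlap. There the region chr3:115668932-115669627 was also lower on day 8 than on day 4 without overlap.

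Among the other 5 regions, the one 43.3 kb beyond the gene, chr3:115758345-115759452, had percentiles of 56.0, 23.2 and 46.4 on day 4, 30.3, 33.7 and 18.5 on day 8, and 44.5, 60.3 and 52.7 on day 21. Day 21 was above day 8 without overlap, by 25.0 points, and 2.46% of the always-called regions rose more, whereas day 4 overlapped both. The region 78.3 kb beyond the gene, chr3:115793315-115794043, was also higher on day 21 than on day 8 without overlap, by 14 points, but not when ranked by fold enrichment. Ranked by −log10 p, the highest mean percentile on each day was that of chr3:115682377-115683277, 27.2 kb below the gene, at 58.5, 62.2 and 64.5, with overlap between days. By fold enrichment its means were 61.2, 68.9 and 57.8, below those of the region 48.9 kb below the gene on days 8 and 21. The regions chr3:115668932-115669627 and chr3:115729018-115729939 had mean percentiles of 35.3, 24.9 and 38.8, and of 13.1, 24.8 and 40.8.

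In the body of S1pr1, 2 regions were called in 8 of the 9 lists. The body region chr3:115711913-115712719 was missed by day 4 list 3 and had fold enrichments of 3.67 to 5.06 in the other 8 lists. The region at the higher coordinate of the gene, chr3:115714733-115715282, was likewise missed by day 4 list 3 and had 2.99 to 4.49. Regions in 1 or 2 day 4 lists and in all 6 later lists numbered 7 of 23 in S1pr1 (30.4%, beside 11.7% of all union regions). Those in no day 4 list but in all 6 later lists numbered 2 (8.70%, beside 19.2%), chr3:115689424-115689790 and chr3:115693388-115693750, at 20.6 and 16.7 kb below the gene. Another 3 regions joined in all day 21 lists with none on day 4 and 2 of 3 on day 8: chr3:115679068-115679487, chr3:115704365-115704992 and chr3:115715340-115715677.

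S1pr5 had no called region in any day 4 list, and 62.9% of all union regions were likewise called in none. The gene (ID 94226, chr9:21242917-21248443) lies 3.58 kb from Keap1 and 16.8 kb from Atg4d and has only 3 union regions, so its numbers are coarse. The day 8 lists called 3 of 3 each, and the day 21 lists 1, 3 and 2. Relative to list length the fitted difference was 1.50 for day 8 against day 4 and 0.95 for day 21 against day 4. Both are set against a number of 0, so their size depends on the pseudocount, and no test is drawn from them. Day 21 against day 8 gave -0.56 ± 0.29 (SE, limma adjusted p = 0.586).

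All peaks at S1pr5 were weak, and none was among the 19499 strongest peaks of its list. The region chr9:21250125-21250564, 1.68 kb beyond the gene and 1432 bases from the promoter printed above, had fold enrichments of 4.65, 4.95 and 5.10 on day 8 and 4.43, 6.52 and 6.62 on day 21. The region chr9:21241436-21241734, 1.18 kb below the gene, had 4.28, 4.32 and 4.17 on day 8, no peak in day 21 list 1, and 4.09 and 4.03 in the other two. The body region chr9:21244278-21245042 had 3.28, 3.33 and 3.16 on day 8 and a peak of 3.49 in day 21 list 2 alone. With at least 50% of a region covered, the differences from day 4 were 0.49 on day 8 and 0.0862 on day 21, and with a pseudocount of 1 the day 21 difference was 0.24.

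S1pr5 is also a gene of NK cells, and S1pr1 and Klf2 are also active in endothelium, so markers of both were counted. Regions of NK cell markers were called at 10 to 15 of 39 on day 4, 26 to 30 on day 8 and 31 to 33 on day 21, with Ncr1, Klra8 and Fcer1g at 0 in all day 4 lists and at 0 on no later day. Regions of endothelial and stromal markers were called at 3 to 6 of 46, 29 to 32 and 26 to 31, with Kdr, Cdh5, Flt4, Pdgfra, Pdgfrb and Pdpn at 0 on day 4. Prox1 of the same list went the other way, at 0 on days 8 and 21 but not on day 4. Tie1, Tek, Emcn, Lyve1 and Col3a1 had no region. B cell markers were at 2 to 4 of 28, 20 in each list, and 17 to 23. Relative to list length, limma called higher and lower on day 8 against day 4, beside 16.2% and 26.3% of all genes, 5 and 0 of 8 tested endothelial and stromal markers, 3 and 1 of 5 B cell markers, 1 and 2 of 4 NK cell markers, 2 and 0 of 6 myeloid markers, 2 and 0 of 5 CD4 T cell markers and 0 and 2 of 3 melanoma markers. Of those called higher, Cdh5, Kdr, Flt4, Pdgfra, Blk, Ebf1, Klra8 and Itgax had 0 regions called on day 4. As for S1pr5, no test is drawn from such genes, so these numbers are a description. The 2 lower NK cell markers were Klrb1c and Eomes. Eomes holds 18 of the 39 NK marker regions and is also on the list of upstream factors used below, so it does not mark cells outside the sort alone. Taken as lists, these markers thus had more called regions on the later days, as the 4 genes and the union regions as a whole did. Their part in the results was not tested.

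More Ccr7 regions were called on the later days than on day 4. The gene (ID 12775, chr11:99144199-99155077) lies 54.9 kb from Tns4 and 54.0 kb from Smarce1, and its 16 regions comprised 4 in the body, 8 below and 4 beyond it. The day 4 lists called 5, 6 and 6, the day 8 lists 13, 14 and 13, and the day 21 lists 14, 11 and 14. Relative to list length the difference was -0.13 ± 0.12 (SE, limma adjusted p = 0.362) for day 8 against day 4, -0.16 (0.269) for day 21 against day 4 and -0.03 (0.987) for day 21 against day 8. With all 16 regions called in every later list, the differences from day 4 would have been 0.12 and 0.13, so a higher value could hardly have been detected. In the 19499 strongest peaks of every list, Ccr7 had 5, 6 and 6 regions on day 4, 5, 5 and 4 on day 8, and 5 each on day 21.

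By −log10 p, the strongest Ccr7 region in every list was chr11:99154887-99155579, which spans the higher coordinate of the gene. Its fold enrichment was 6.99, 7.77 and 7.61 on day 4, 8.29, 9.28 and 8.40 on day 8, and 8.50, 8.85 and 8.10 on day 21. Its percentile by −log10 p was 83.8, 89.9 and 91.6 on day 4, 76.2, 87.1 and 78.2 on day 8, and 82.9, 79.0 and 76.7 on day 21. Day 21 was below day 4 without overlap, whereas day 8 overlapped both. By fold enrichment the mean percentile went from 79.9 to 45.3 and 45.5, which is the direction seen at the Klf2 start. In that ranking, 28.3% of all always-called regions within 1 kb of a gene end were lower without overlap on day 8 than on day 4. On day 21 it was 31.6%.

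Of the other 4 always-called regions of Ccr7, 2 stood higher on day 21. The region 7.12 kb below the gene, chr11:99136405-99137078, had percentiles of 17.1, 2.3 and 8.7 on day 4, 16.4, 14.6 and 7.1 on day 8, and 36.8, 29.8 and 39.3 on day 21. Day 21 was above both earlier days without overlap, and 3.44% of the always-called regions rose more from day 8 to day 21. The region 7.75 kb beyond the gene, chr11:99162831-99163653, had 34.5, 34.8 and 38.6 on day 4, 57.3, 34.1 and 33.4 on day 8, and 72.0, 64.3 and 53.0 on day 21, so day 21 was above day 4 but overlapped day 8. The 2 remaining regions, chr11:99131226-99132036 and chr11:99170623-99171508, had mean percentiles of 11.2, 14 and 13.5, and of 34.9, 39.9 and 42.7, with overlap between days.

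**Figure D3:**
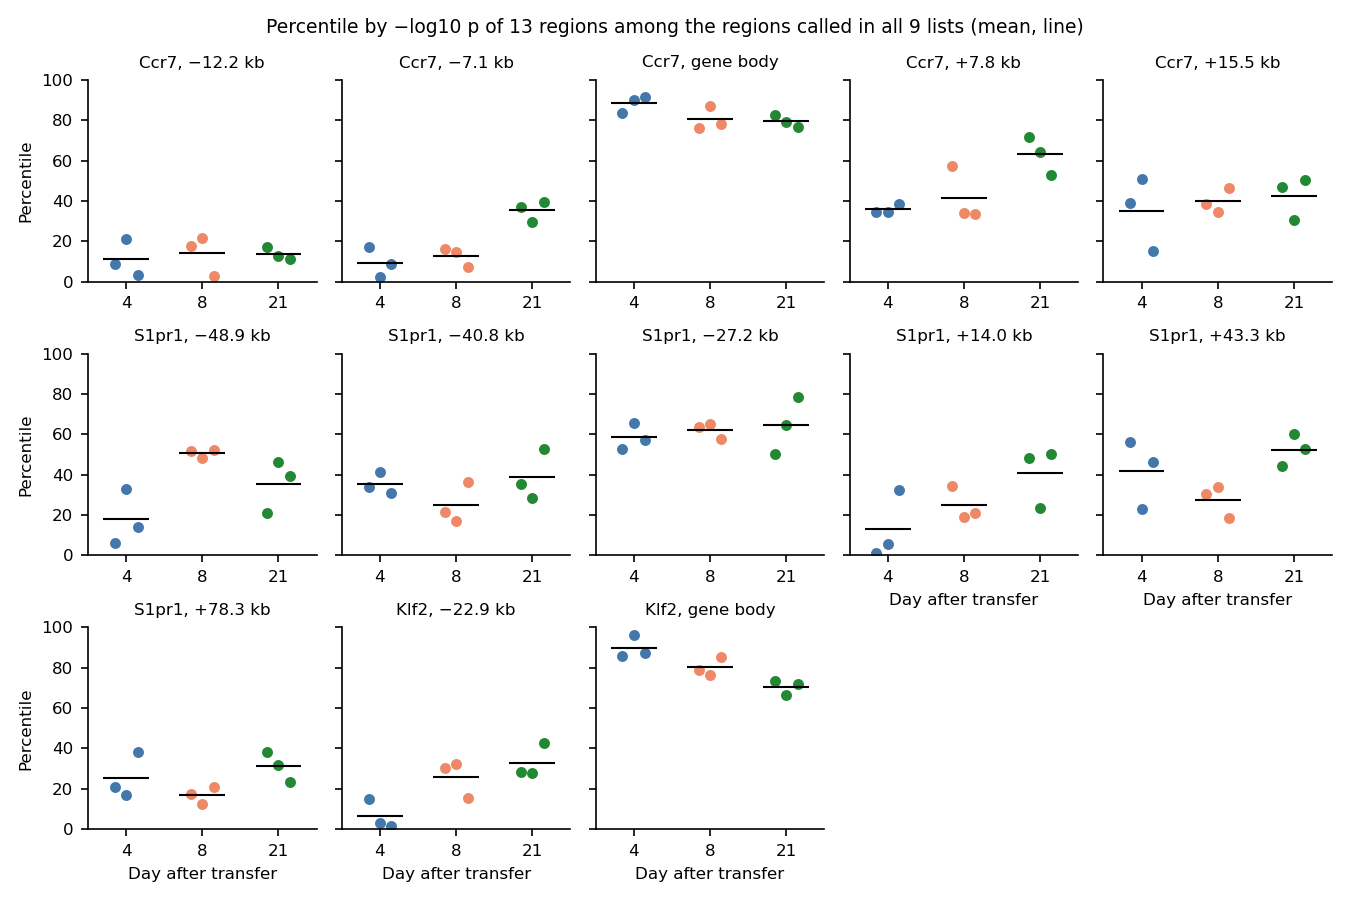
Percentile by −log10 p of the 13 regions of Ccr7, S1pr1 and Klf2 that were called in all 9 lists, among the 15109 such regions of each list (points, by day after transfer). The Klf2 start region goes from a mean of 89.7 on day 4 to 70.6 on day 21, while the S1pr1 region 48.9 kb below the gene goes from 17.8 to 50.8 on day 8.

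Regions of Ccr7 called in no day 4 list and in all day 8 lists numbered 6. They were chr11:99123951-99124258, chr11:99125089-99125748, chr11:99130746-99131036 and chr11:99132408-99132726 below the gene, chr11:99144500-99144844 in the body and chr11:99166249-99166602 beyond it. Their fold enrichments on day 8 lay between 3.04 and 5.42. All but the first of them were also called in all day 21 lists. Within the body, chr11:99149974-99150247 was called in 2 day 8 lists and chr11:99150346-99150725 in 1 day 8 list and 2 day 21 lists.

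Over the 4 genes, 14 of 49 regions (28.6%) had a peak on day 8 in 3 of 3 lists and on day 4 in 0 of 3, beside 25.7% of all union regions. They comprised the 6 of Ccr7, 2 of S1pr1, 3 of S1pr5 and 3 of Klf2. For day 21 against day 4 the number was also 14, with 5 of Ccr7, 5 of S1pr1, 1 of S1pr5 and 3 of Klf2, beside 25.3%. No region of the 4 genes went from 3 lists to 0 after day 4, as did 0.00953% of all regions by day 8 and 0.00794% by day 21. Between day 8 and day 21 none of the 49 was gained or lost by this rule, beside 1.02% and 1.09% of all regions. Among the 19499 strongest peaks of every list, 0 of the 49 were gained and 0 lost in all 3 comparisons. The shares of all regions there were 1.37% gained and 0.631% lost for day 8 against day 4, 0.638% and 0.532% for day 21 against day 8, and 1.42% and 0.591% for day 21 against day 4. The regions called in all 9 lists numbered 13 (26.5%, beside 24.0% of all), with 5 in Ccr7, 6 in S1pr1 and 2 in Klf2. Those called in no day 4 list but all later lists numbered 11 (22.4%, beside 19.2%), and none was called on day 4 alone. These shares are near those of all regions.

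Ranks of the 13 always-called regions also moved about as often as ranks in general. On day 8, against day 4, 2 were higher and 1 lower without overlap, beside 15.0% and 16.2% of all always-called regions. On day 21, against day 8, 3 were higher and 2 lower, beside 14.4% and 14.5%. Against day 4, day 21 had 3 higher and 2 lower, beside 15.0% and 16.3%. All 13 are shown in the plot of percentiles by day.

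**Figure D4:**
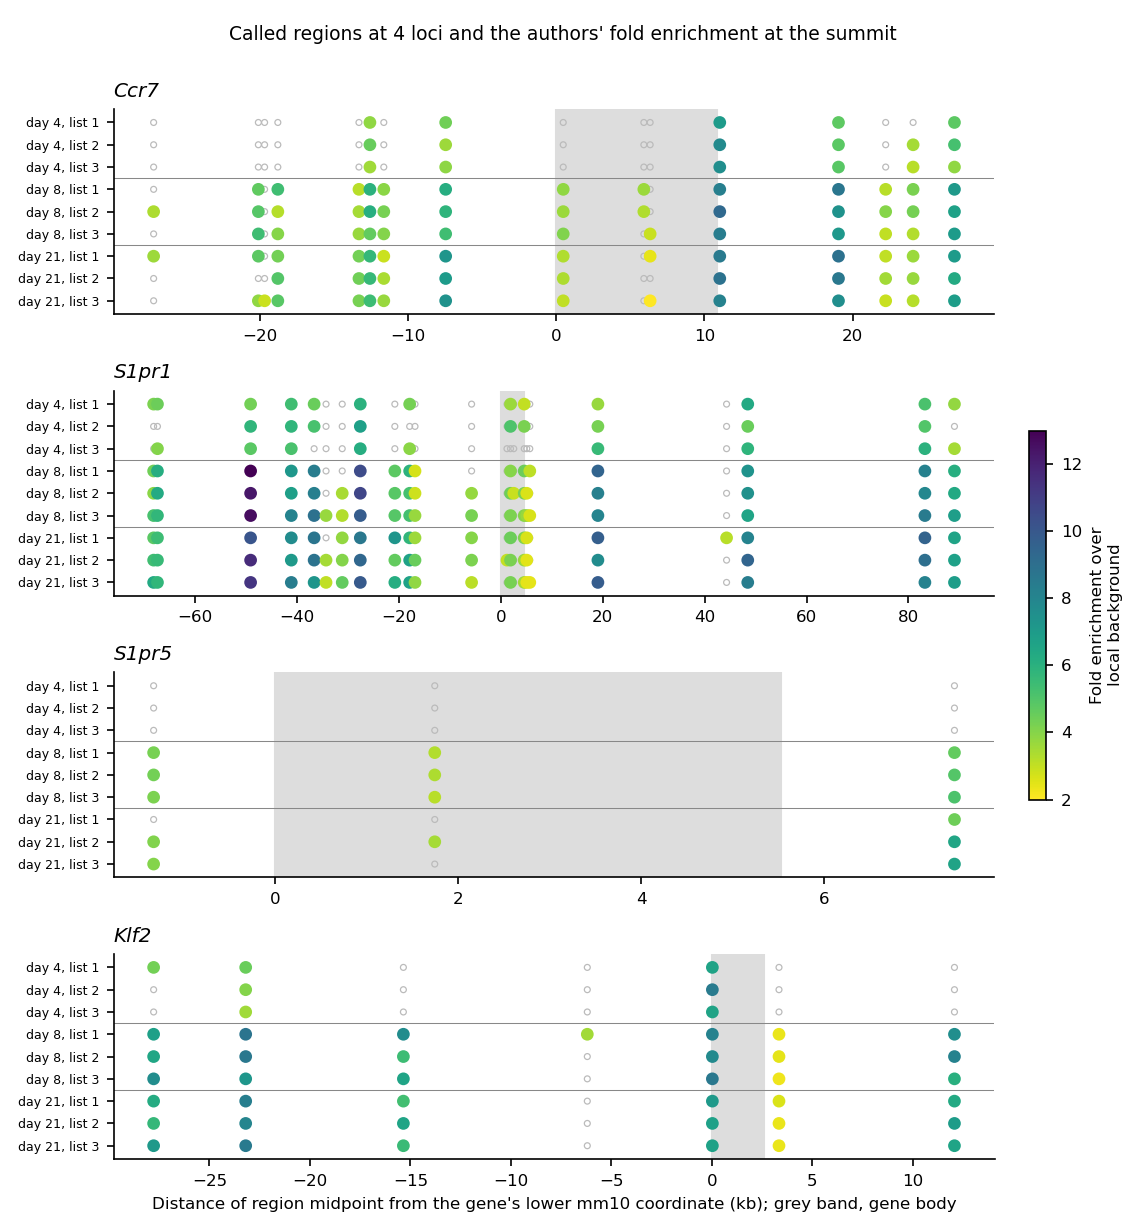
Position of each union region of the 4 genes (x, midpoint distance in kb from the gene's lower coordinate) in each of the 9 lists (y), coloured by the authors' fold enrichment where called and open where not. In S1pr5 all day 4 circles are open, and in Klf2 the start region is the only one besides that at 22.9 kb to be filled in every list.

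In the wider homing and egress pathway, 26 of 35 listed genes could be tested, and from day 4 to day 8, 3 were called higher and 10 lower (beside 16.2% and 26.3% of all tested genes), with a median log2 difference of -0.24 beside -0.14 over all tested genes. The higher ones were S1pr3, another sphingosine 1-phosphate receptor (from 0 in all day 4 lists to a mean of 2.67 of 4 regions, so that, as for S1pr5, no test is drawn from it), Itga4, the alpha 4 integrin (0.89, limma adjusted p = 0.0135), and Dock2, the Rac exchange factor that drives lymphocyte migration (0.78, 0.00266). The lowest were Itgal, the alpha chain of LFA-1 (-1.30, 0.000163, with 3 of 3 regions called in all lists of both days), Arhgef1 (-1.14, 0.00124), and Arrb2, an arrestin (-1.06, 0.00683). Itgal shows that a lower value relative to list length does not need a lost region. Without the division no gene passed as lower on day 8 or day 21. Even with all their regions called on day 8, Itgal, Arhgef1 and Arrb2 could not have come out higher. In the 19499 strongest peaks of every list, 3 of all tested genes passed as higher on day 8 and 11 as lower. Most calls of this fit thus did not hold there.

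Other receptors and regulators of retention and exit were described in the same way. Cd69, whose product removes S1PR1 from the surface, had 7.67, 11.7 and 14 of 15 regions and was lower relative to list length on both later days (-0.73, adjusted p = 0.000437, and -0.46, 0.00468). Cxcr4, another chemokine receptor, had 7, 12.7 and 14 of 15 and was also lower (-0.48, 0.00318, and -0.33, 0.0215). S1pr2, which inhibits migration, gave 0.12 (0.802) and 0.14 (0.790). S1pr4 had 1 region, called in all 9 lists, and was not tested. All but S1pr4 had more regions called on day 8 than on day 4. As for S1pr1, neither Cd69 nor Cxcr4 could have come out higher, even with all 15 regions called in every later list. Their lower values are therefore a description.

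On day 21, against day 4, the pathway had 4 genes higher and 11 lower (beside 16.1% and 25.6% of all tested genes; median -0.25, beside -0.15 over all genes), led by S1pr3 (a mean of 2.33 regions, against 0), Itga4 (0.99, limma adjusted p = 0.0083) and Dock2 (0.60, 0.0102) among the higher, and by Itgal (-1.29, 0.000185), Arhgef1 (-1.29, 0.000681) and Gnai2 (-0.68, 0.00843), the G protein subunit through which CCR7 and S1PR1 signal. Itgal, Arhgef1 and Gnai2 could not have come out higher here, even with all their regions called on day 21. From day 8 to day 21 none of the 26 passed with limma, and 3 had an unadjusted p under 0.05.

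Factors that act upstream of these genes were counted in the same way, with 20 of 22 tested. From day 4 to day 8, 4 were called higher and 4 lower (median -0.08), beside 16.2% and 26.3% of all tested genes. Tbx21, which encodes T-bet, a factor needed for S1pr5 expression, had no region called on day 4 and a mean of 4.67 of 6 on day 8, and no test is drawn from this number of 0 either. Zeb2, which acts with T-bet (0.95, limma adjusted p = 0.00967), Mef2c (0.79, 0.0371) and Foxo1, which activates Klf2 and Ccr7 (0.60, 0.00953, from 5 to 20 of 30 regions), were also higher. Klf10 (-0.92, limma adjusted p = 0.000437), Tcf7, which encodes TCF-1 (-0.54, 0.00129), and Mef2d (-0.38, 0.0353) were lowest. None of these lowest factors could have come out higher, even with all their regions called on day 8. In the 19499 strongest peaks of every list, 3 of all tested genes passed as higher on day 8 and 11 as lower. Most calls of this fit, in either direction, thus did not hold there.

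From day 4 to day 21, 4 factors were higher and 5 lower (median -0.09), beside 16.1% and 25.6% of all tested genes. Tbx21 (a mean of 3.67 regions, against 0), Mef2c (0.85, limma adjusted p = 0.0277), Zeb2 (0.68, 0.0415) and Foxo1 (0.56, 0.0134) were the higher ones. Map2k5, a kinase of the ERK5 pathway that induces Klf2, had 1 of 5 regions called on both days (-1.29, 0.00344), and Klf10 (-0.79, 0.00111) and Mef2d (-0.73, 0.00177) followed. Klf10 and Mef2d could again not have come out higher, even with all their regions called on day 21. From day 8 to day 21 none of the 20 passed with limma, and 5 had an unadjusted p under 0.05.

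Genes with the most similar share of called regions over the 9 lists were looked up among about 4138 genes with at least 5 regions, as a description without a test. Nearest to Klf2 were Mob3a (mean absolute difference 1.59 percentage points), Pde4a (3.00) and Sntb2 (3.17). Nearest to Ccr7 were Rgs3 (3.24), Cd2 (3.47) and Sipa1l1 (3.63). Nearest to S1pr1 were Irf2bpl (4.29), Ppp1r16b (4.67) and Tnip3 (4.72). S1pr5 had no neighbour as close, the nearest being Fam174b (7.94), Dpysl5 (8.89) and S100a6 (8.89). Genes with as few regions as S1pr5, which has 3, were left out of this comparison. It therefore does not show that S1pr5 stands apart. With 3 to 30 regions a gene, such shares take few values, so close matches are common.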

How the data were processed

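Each library has its own deposited peak list, so peaks were called per sample. The tools, per the submitters' processing notes, were MACS2, Picard, BWA 0.7.15 and deepTools 2.0, on mm10; read filters, any Tn5 shift and caller options are not stated there. Each deposited line holds the authors' score, a fold enrichment (a ratio to local background), −log10 p and −log10 q, and a summit offset; the largest q was 0.0500. The score and the offset were not tested. On chromosomes 1 to 19 and X, 353295 peaks were kept. Libraries were grouped by day from their titles, because the genotype and time point tags hold each other's values.

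Fold and −log10 p together gave whole summit pileups for at least 99.995% of peaks of every list (tolerance 0.001 in −log10 p), used for depth only. A list called a region when a peak overlapped it by 1 base or more. Gene positions came from a RefSeq table for GRCm38.p6 with 21631 protein-coding genes, and 95.3% of regions were placed. Promoters of 2 of the 4 genes matched the sequence table.

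Numbers of called regions per gene were fitted over all 9 lists, with 6 residual degrees of freedom, by limma 3.58.1 with a robust trend (R 4.3.3). The spread of a gene was kept at or above that of 1 region called with a probability of 0.5, and Benjamini-Hochberg adjustment ran over all 7830 genes. Regions gained or lost, ranks and promoter motifs were described without a test. The genes named besides the 4 are, per comparison, up to 3 with the largest difference each way among those past the threshold in 2 lists (homing and egress pathway, upstream factors), 8 named in any case (1 of these is not reported here), and the 3 most similar genes of each member. The 4 genes, the lists and the tests were chosen with earlier results of these data known.

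Simulated data had 200 of 7830 genes changed, and both kinds of change were losses. With 50% of the regions of the 200 genes closed, the fit for day 8 against day 4 recovered 36 to 56 genes. It also called 5 to 14 unchanged genes. It recovered 0 to 14 when regions were called less often, so a missed call says little. The simulated days were drawn at equal calling rates, unlike the real day 4 and day 8 lists. These numbers therefore give no error rate for lists of unequal length. The rest was done in Python 3.11.15 (scipy 1.17.1, numpy 2.4.6, pandas 2.3.3, matplotlib 3.10.9). Alternatives covered the division by list totals, equal list lengths, pseudocount, minimum number of regions, q, overlap, distance, the lower bound, the replicate number, leaving out each list and, added after seeing the data, ranking by fold enrichment.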

Additional observations from a re-analysis of the deposited data

How the results depend on the processing

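Division by list totals decided the direction for Ccr7, S1pr1 and Klf2 against day 4. Without it, day 8 against day 4 had 6563 genes higher and 0 lower, with Ccr7 at 1.17, S1pr1 at 0.81 and Klf2 at 1.29, and day 21 against day 4 had 6422 higher and 0 lower, with 1.13, 0.92 and 1.22. In the 19499 strongest peaks, 3 genes were higher and 11 lower on day 8 and 3 and 10 on day 21, S1pr1 was at -0.31 and Klf2 at 0.72 on day 8, Klf2 was at 0.60 on day 21, Ccr7 was at 0.10 for day 21 against day 8, and 0 regions of the 4 genes were gained on day 8 and 0 on day 21; S1pr5 gave no value there or with at least 6 regions.

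A pseudocount of 1 gave 785 higher and 3311 lower on day 8, and 723 and 3291 on day 21, with S1pr1 at -0.40 (limma adjusted p = 0.0283) and S1pr5 at 0.24 on day 21. At least 6 regions gave 673 and 617, and 704 and 550; no minimum gave 6436 lower on day 8 and 6455 on day 21. With 50% of a region covered, S1pr1 was at 0.84 and 0.94 and S1pr5 at 0.49 and 0.0862 against day 4 on days 8 and 21, and Ccr7 was at 0.077 and Klf2 at 0.0859 for day 21 against day 8. A q of at most 0.001 put Klf2 at 0.0072 there. Within 50 kb S1pr1 was at -0.43 on day 8, and 1 gene was higher on day 21 than on day 8. The 1 gene lower on day 21 than on day 8 became 0 without division, in the strongest peaks, with at least 6 regions, with no minimum and with the replicate block, and 2 with pseudocount 1, with 50% covered and without the lower bound. Ranked by fold enrichment, 3 regions in place of 1 were lower on day 8 than on day 4, 4 in place of 3 were higher on day 21 than on day 4 and 2 in place of 3 were higher on day 21 than on day 8. These are of 13 regions. Over all always-called regions, the shares in the same order were 28.3%, 10.9% and 5.57% within 1 kb of a gene end. Farther away they were 18.3%, 27.0% and 13.8%. Where no such value is given, these settings kept direction and call of the log2 differences of the 4 genes; causes were not tested.

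Same-numbered lists did not deviate together (correlations -0.03 to 0.06 over 9 pairs, against -0.04 to 0.02 for 18 other pairs), so the numbers do not pair the lists. With the replicate number as a block, 1128 genes were higher and 1807 lower on day 8, and S1pr1 was at -0.49 (limma adjusted p = 0.0545); no other call of the 4 genes changed.

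Leaving out each list in turn gave, for day 8 against day 4, -0.64 to -0.30 for S1pr1 and -0.16 to 0.17 for Klf2, and for day 21 against day 4, -0.52 to -0.18 for S1pr1, 0.63 to 1.25 for S1pr5 and -0.22 to 0.11 for Klf2. For day 21 against day 8 it gave -0.11 to 0.0501 for Ccr7, -0.12 to 0.033 for Klf2, 0 to 2 genes higher and 0 to 3 lower, and 0 to 1 regions of the 4 genes lost. Regions whose ranks did not overlap numbered 1 to 2 lower for day 8 against day 4, 3 to 5 higher for day 21 against day 4 and 3 to 5 higher for day 21 against day 8. Read totals are unknown, so an uncalled region was not detectable in that list and cannot be called closed.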
